A study of Saccharomyces cerevisiae with 21 samples.

Results

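The genes described here make, move and consume glycerol in the budding yeast Saccharomyces cerevisiae: GPD1, GPD2, GPP1, GPP2, STL1, FPS1, GUT1, GUT2, GCY1 and DAK2. They were taken by gene symbol from the array platform's annotation, which gave 1 probe set for each of the 10 genes, out of 9275 probe sets tested that cover 5656 genes. Their RNA was measured on 21 Affymetrix arrays of the type YG_S98 across drying and rehydration, in 7 groups of 3 arrays. Every group was the same strain, BY4743, a diploid of the S288C background in which HIS3, LEU2 and URA3 are deleted on both homologues and LYS2 and MET15 on a single one. No group carried another mutation. Control cells were grown in the rich medium YPD at 30 °C to an absorbance of 0.8, pelleted, and sampled after resuspension in YPD diluted 20-fold and before any drying. Cells called 50% dry had dried in open dishes of 15 ml at 22 to 25 °C for 18 h. Dry cells had dried for 42 h and then stood for 72 h at 20% relative humidity. The rehydrated groups were dry cells put back into YPD diluted 20-fold for 15, 45, 90 or 360 min, each pooled from 4 plates. The labels do not say whether the 3 arrays of a group came from separate cultures, so the p-values measure only the spread between these arrays, which may be technical.

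Yeast makes glycerol from the glycolytic intermediate dihydroxyacetone phosphate. A glycerol 3-phosphate dehydrogenase, Gpd1 or Gpd2, reduces it, and a phosphatase, Gpp1 or Gpp2, then releases glycerol. Glycerol is the main compatible solute of this yeast: cells accumulate it when water is drawn out of them, a response in which the high-osmolarity glycerol (HOG) kinase pathway induces GPD1 and GPP2, and they also make it when oxygen is short, to reoxidize NADH. Fps1 is the membrane channel through which glycerol leaves, and Stl1 is a proton symporter that takes it up. To use glycerol as a carbon source the cell phosphorylates it with the kinase Gut1 and oxidizes the product with the mitochondrial enzyme Gut2, genes that are repressed by glucose. A second proposed route runs through the glycerol dehydrogenase Gcy1 and the dihydroxyacetone kinases, of which Dak2 is one.

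Signals are given as deposited, on a linear scale. Changes are differences of mean log2(signal + 17.74) after quantile normalization, with their standard error and n = 3 arrays per group, so they understate the change of dim genes such as STL1 and DAK2. A gene is called when limma's adjusted p is under 0.05 and the change is at least 2-fold. Control arrays formed a hybridization run and a scan day of their own, and the 90 and 360 min arrays a run each, so in every comparison with those groups the run and the group cannot be told apart. The 50% dry, dry, 15 min and 45 min arrays shared runs on 1 scan day. Of 3 measures of RNA quality, that of ACT1 moved along the same course. The log2 difference between the 3' and the 5' probe sets of ACT1, the actin gene, averaged -0.57 ± 0.33 in control, 0.76 ± 0.26 in 50% dry and 0.94 ± 0.03 in dry cells, and 1.28 ± 0.09, 1.79 ± 0.02, 2.24 ± 0.24 and 2.71 ± 0.17 at 15, 45, 90 and 360 min (SD, n = 3 each). For SRB4 the means in the same order were 0.998, 1.38, 1.61, 2.05, 2.38, 2.65 and 2.36, lower at 360 than at 90 min. For SPT15 they were 1.48, 1.64, 1.05, 1.59, 2.0, 2.18 and 2.74, the dry mean being the lowest. Their part in the results was not tested. In bulk RNA, fewer cells holding a transcript and less of it per cell cannot be told apart. For the deleted genes, the 1 URA3 probe set read 0.5 to 5.8 on the 21 arrays and the 3 LEU2 sets 2 to 107.5, while the 2 HIS3 sets read 36.6 to 874.5. The HIS3 deletion of this strain background leaves part of the gene in place.

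All 10 genes differed among the 7 groups by limma's F test, with adjusted p between 2.44e-13 and 1.83e-04; of all probe sets, 82.5% did. By the time cells were 50% dry, GUT1 and GUT2 had risen and GPD2, GPP1, GPP2 and DAK2 had fallen relative to control, 6 of 10 genes called, against 26.9% of all probe sets. Between 50% dry and dry cells STL1 rose and GPD2 fell, 2 of 10 genes, against 8.11% of all. Set directly against control, dry cells had 3 genes higher (STL1, GUT1, GUT2) and 4 lower (GPD2, GPP1, GPP2, DAK2), 7 of 10, against 35.0% of all. After 360 min of rehydration GPD1, GPP1 and STL1 were lower than in dry cells, 3 of 10, against 23.1% of all. At that time 8 of the 10 genes were called against control, 3 higher and 5 lower, where 41.1% of all probe sets were called. The comparisons with control share its 3 arrays, and those with dry cells share the dry arrays.

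**Figure D1:**
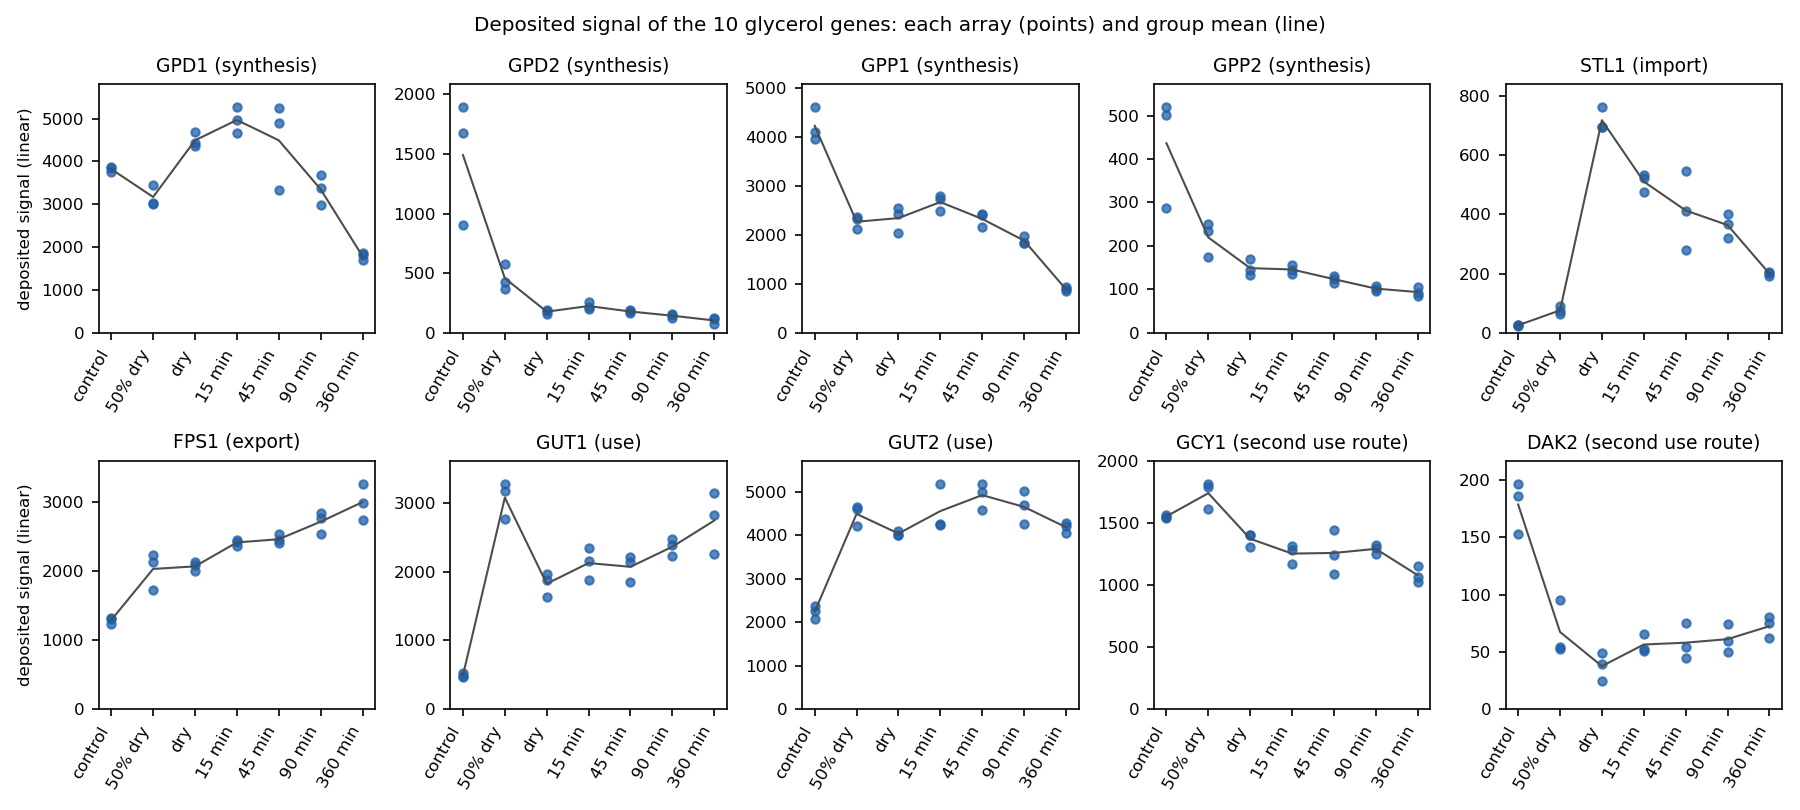
Deposited signal (linear scale, from 0) of the 10 genes in control, 50% dry and dry cells and after 15, 45, 90 and 360 min of rehydration. Points are single arrays, 3 per group, and the line joins group means; GPD2, GPP1, GPP2 and DAK2 are highest in control cells, STL1 in dry cells, and GPD1 is lowest at 360 min.

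GPD1 encodes the glycerol 3-phosphate dehydrogenase that responds to osmotic stress, and its transcript stayed abundant until late rehydration. Its signals were 3844.5, 3880.5 and 3746.7 in control, 3460.8, 3033.8 and 3018.2 in 50% dry, 4439.9, 4356.3 and 4682.0 in dry cells, 4658.7, 5270.1 and 4976.9 at 15 min, 4902.7, 5243.2 and 3338.6 at 45 min, 3691.4, 3369.9 and 2993.6 at 90 min, and 1810.4, 1862.1 and 1698.1 at 360 min. The 3 arrays at 360 min were the lowest of all 21, and the dry arrays lay above both the 50% dry and the control arrays without overlap. Dry cells exceeded 50% dry cells by 0.77 ± 0.13 on the log2 scale (adjusted p = 8.49e-05) and control cells by 0.42 ± 0.13 (adjusted p = 0.00678), both under the 2-fold minimum. The difference from control was 0.23 as deposited (adjusted p = 0.132) and 0.0025 with median-centred arrays (adjusted p = 0.989), and that from 50% dry cells 0.50 and 0.47. At 360 min GPD1 fell 3.06-fold relative to dry cells, by 1.61 ± 0.13 on the log2 scale (adjusted p = 3.64e-09), and 2.29-fold relative to control cells (-1.20 ± 0.13, adjusted p = 7.26e-08). With median-centred arrays both of these changes had a size of 0.85 and were not called.

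GPD2 encodes the isozyme known for its induction when oxygen is short, and it fell early and stayed low. Its signals were 1891.9, 906.0 and 1672.9 in control, 369.2, 427.7 and 577.3 in 50% dry and 185.6, 187.5 and 159.9 in dry cells. After rehydration they were 198.3, 216.7 and 259.2 at 15 min, 187.9, 167.3 and 180.9 at 45 min, 150.4, 122.6 and 158.1 at 90 min, and 127.0, 113.9 and 70.6 at 360 min. Every control array was above every 50% dry array, and every 50% dry array above every array that followed. GPD2 was 3.14-fold lower in 50% dry than in control cells (-1.65 ± 0.23, adjusted p = 5.17e-06), and 2.55-fold lower in dry than in 50% dry cells (-1.35 ± 0.23, adjusted p = 1.39e-04). Within the run that held 3 of the 50% dry arrays and 1 dry array this difference was -1.30. GPD2 was 8.0-fold lower in dry than in control cells (-3.0 ± 0.23, adjusted p = 1.11e-09), and at 360 min it was 10.0-fold below control (-3.32 ± 0.23, adjusted p = 2.32e-10).

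The gap between the isozymes GPD1 and GPD2 was compared array by array; probe sequences were not used here, so binding of one isozyme's RNA to the other's probes was not tested, here or for GPP1 and GPP2. The log2 signal of GPD1 minus that of GPD2 was 3.42 larger in dry than in control cells, with an SD of 0.06 over the dry and 0.43 over the control arrays. The exact two-sided permutation test gave p = 0.1, the smallest that 3 against 3 arrays allow, and 0.129 after adjustment over the 18 pair comparisons made. No pair comparison could pass 0.05 in this design. Of the 18 comparisons, 14 reached that smallest p. At 360 min relative to dry cells the same gap changed by -1.29 (exact p = 0.1, adjusted p = 0.129).

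GPP1 and GPP2 encode the phosphatases of the second step, Gpp2 being the form known for induction by osmotic stress and Gpp1 the one tied to growth without oxygen. GPP1 signals were 3963.7, 4607.7 and 4107.0 in control, 2118.3, 2355.0 and 2329.0 in 50% dry, 2552.7, 2434.8 and 2037.8 in dry cells, and 2478.6, 2788.2 and 2740.2 at 15 min. They were 2418.4, 2401.9 and 2155.5 at 45 min, 1834.3, 1983.3 and 1830.1 at 90 min, and 928.5, 885.5 and 851.2 at 360 min. The control arrays stood above all others and the 360 min arrays below all others. Between them the 50% dry, dry and 45 min arrays overlapped, while the 90 min arrays lay below all of those and below the 15 min arrays. GPP1 fell by 1.11 ± 0.09 in 50% dry relative to control cells (2.16-fold, adjusted p = 3.40e-09), and differed by only 0.10 ± 0.09 between dry and 50% dry cells (adjusted p = 0.438). The dry-to-control difference of -1.01 ± 0.09 (adjusted p = 9.29e-09) lay at the 2-fold minimum, and without the third dry array it was -0.91 and not called. At 360 min GPP1 was 2.42-fold below dry cells (-1.28 ± 0.09, adjusted p = 1.18e-09) and 4.89-fold below control cells (-2.29 ± 0.09, adjusted p = 8.58e-14). The 50% dry call was lost with the deposited scaling (-0.89), as was the dry call (-0.85), and the call of 360 min against dry cells was lost with median-centred arrays (-0.91).

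GPP2 was lower than in control cells at every later stage. Its signals were 519.4, 287.7 and 501.8 in control, 233.7, 174.7 and 250.1 in 50% dry, and 144.7, 169.2 and 132.7 in dry cells. Over the 12 arrays of the rehydrated groups they lay between 84.5 and 157.1. The control arrays were again above all others, though the second of them was nearer to the 50% dry arrays than to the other two. GPP2 was 2.09-fold lower in 50% dry than in control cells (-1.06 ± 0.17, adjusted p = 2.05e-05), a call that was lost without control array 1 (-0.95), without control array 3 (-0.94) or without 50% dry array 2 (-0.92). It was 3.01-fold lower in dry than in control cells (-1.59 ± 0.17, adjusted p = 9.37e-08) and 3.51-fold lower at 360 min than in control cells (-1.81 ± 0.17, adjusted p = 1.30e-08). Between 360 min and dry cells the difference was -0.22 ± 0.17 (adjusted p = 0.265), against -1.28 for GPP1, so the gap between the phosphatases changed by -1.05 (exact p = 0.1, adjusted p = 0.129).

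STL1, the glycerol importer, showed the largest change of the 10 genes in dry relative to control cells, most of it between 50% dry and dry cells. Its signals were 27.2, 25.8 and 23.9 in control, 73.3, 65.3 and 89.6 in 50% dry, 763.0, 695.5 and 697.2 in dry cells, 534.5, 474.9 and 524.5 at 15 min, 413.2, 546.8 and 280.8 at 45 min, 402.1, 368.9 and 321.8 at 90 min, and 202.4, 205.8 and 191.8 at 360 min. The 50% dry arrays lay above the control arrays, the dry arrays were the highest of all 21, and the 360 min arrays were below the other rehydrated groups yet above every 50% dry array. STL1 rose 8.11-fold in dry relative to 50% dry cells (3.02 ± 0.16, adjusted p = 8.68e-11), and within the run that both groups shared the difference was 3.10. It rose 15.6-fold in dry relative to control cells (3.96 ± 0.16, adjusted p = 9.00e-14); since control signals were near the added value, this difference was 4.59 with 1.77 added in place of 17.74 and 2.71 with 88.7 added. The first step, 50% dry against control, was 0.94 ± 0.16 (adjusted p = 5.05e-05) and just under 2-fold. By 360 min STL1 had fallen 2.49-fold relative to dry cells (-1.32 ± 0.16, adjusted p = 1.23e-06) and was 6.27-fold above control cells (2.65 ± 0.16, adjusted p = 3.26e-11).

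FPS1, the export channel, had its lowest signals in control cells and its highest mean at 360 min. Its signals were 1311.6, 1321.2 and 1237.3 in control, 2123.8, 2237.0 and 1727.1 in 50% dry, 2124.8, 2081.2 and 1993.6 in dry cells, 2363.4 to 2842.4 on the 9 arrays at 15 to 90 min, and 3262.9, 2741.0 and 2981.2 at 360 min. Control arrays were below all others. FPS1 exceeded control by 0.77 ± 0.09 in 50% dry cells (adjusted p = 5.52e-07) and by 0.87 ± 0.09 in dry cells (adjusted p = 8.03e-08), both short of 2-fold and both 0.44 with median-centred arrays, and rose 2.25-fold at 360 min relative to control (1.17 ± 0.09, adjusted p = 1.17e-09). The log2 signal of STL1 minus that of FPS1 was 3.09 larger in dry than in control cells, with SDs of 0.04 in both groups, and changed by -1.61 at 360 min relative to dry cells; both had exact p = 0.1 and adjusted p = 0.129.

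GUT1, the glycerol kinase, rose most at the first drying stage. Its signals were 485.9, 524.5 and 471.6 in control, 3176.9, 2768.0 and 3277.5 in 50% dry, 1958.2, 1879.3 and 1632.3 in dry cells, and 2153.0, 1872.4 and 2345.7 at 15 min. They were 2217.1, 2135.8 and 1854.4 at 45 min, 2381.9, 2229.1 and 2471.1 at 90 min, and 2255.0, 3142.5 and 2823.4 at 360 min. Control arrays were far below the rest, and the dry arrays were below every 50% dry array. The change in 50% dry relative to control cells was 2.73 ± 0.13, or 6.62-fold (adjusted p = 8.99e-13). Dry cells were lower than 50% dry cells by less than 2-fold (-0.85 ± 0.13, adjusted p = 2.79e-05; -0.73 within the shared run) and 3.66-fold above control (1.87 ± 0.13, adjusted p = 1.38e-10). At 360 min GUT1 was 4.96-fold above control (2.31 ± 0.13, adjusted p = 6.57e-12) and differed from dry cells by 0.44 ± 0.13 (adjusted p = 0.00603), a difference that reached 1.04 and was called with median-centred arrays.

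GUT2, the mitochondrial glycerol 3-phosphate dehydrogenase, rose at the same stage, after which its signals lay between 3996.3 and 5186.5 on every array. Its signals were 2268.3, 2084.8 and 2370.3 in control, 4653.3, 4607.2 and 4209.2 in 50% dry, 4108.5, 3996.3 and 4012.6 in dry cells, 4244.3 to 5186.5 on the 9 arrays at 15 to 90 min, and 4045.2, 4287.8 and 4217.8 at 360 min. No control array reached any other array. GUT2 rose 2.36-fold in 50% dry relative to control cells (1.24 ± 0.11, adjusted p = 7.47e-09) and 2.26-fold in dry relative to control cells (1.17 ± 0.11, adjusted p = 1.10e-08). Neither call held under the other scalings: in 50% dry cells the change was 0.997 with the deposited scaling and 0.80 with median-centred arrays, and in dry cells 0.85 and 0.62. Between 360 min and dry cells the direction itself depended on the scaling, at -0.57 ± 0.11 (adjusted p = 1.40e-04) as normalized, 0.05 as deposited and 0.52 with median-centred arrays. The gap between GUT1 and GUT2 was 0.70 larger in dry than in control cells (exact p = 0.1, adjusted p = 0.129).

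The genes of the second route differed from each other. GCY1, the glycerol dehydrogenase, was called in none of the 9 comparisons; its signals ran from 1547.3 to 1568.7 in control cells, 1616.3 to 1821.1 in 50% dry cells, 1312.3 to 1409.2 in dry cells and 1026.4 to 1155.5 at 360 min, so the highest group was 50% dry. Its difference between dry and 50% dry cells was -0.38 ± 0.08 (adjusted p = 0.00133), and between dry and control cells -0.10 ± 0.08 (adjusted p = 0.309). DAK2, the dihydroxyacetone kinase, had signals of 186.4, 152.7 and 196.9 in control, 54.4, 95.1 and 52.9 in 50% dry and 48.8, 25.0 and 39.3 in dry cells, and 44.4 to 80.5 in the rehydrated groups. Control arrays were above all others and the rest overlapped in part. DAK2 was 2.64-fold lower in 50% dry than in control cells (-1.40 ± 0.23, adjusted p = 2.81e-05) and 3.98-fold lower in dry than in control cells (-1.99 ± 0.23, adjusted p = 2.59e-07). At 360 min it was 2.06-fold below control (-1.05 ± 0.23, adjusted p = 4.23e-04), a call lost without control array 3 (-0.97) or without 360 min array 1 (-0.91). Its difference between 360 min and dry cells was 0.95 ± 0.23 (adjusted p = 0.00149), and it was called without dry array 1 (1.11), without dry array 3 (1.02) or without 360 min array 1 (1.1).

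**Figure D2:**
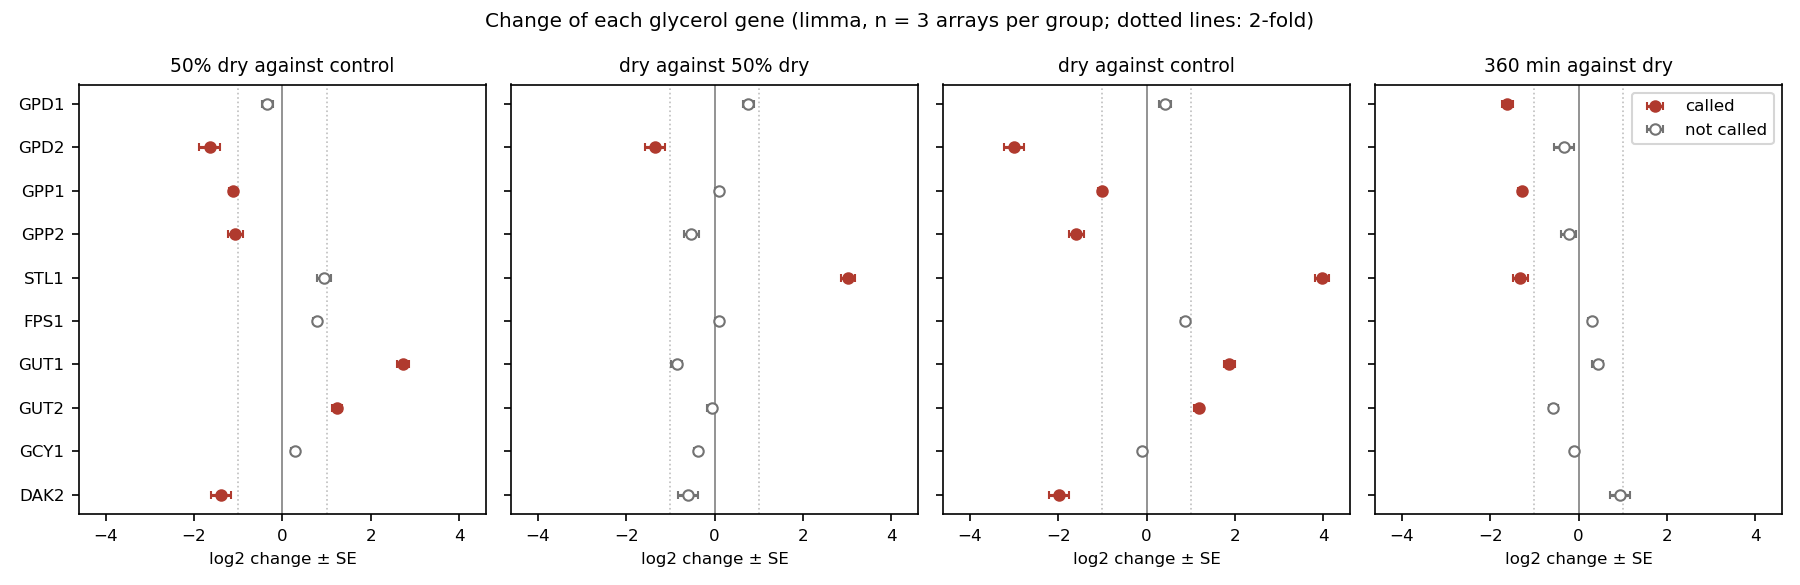
Change of each gene on the log2 scale with its standard error (n = 3 arrays per group) in 50% dry against control, dry against 50% dry, dry against control and 360 min against dry cells. Filled points are called and dotted lines mark 2-fold; the 4 panels hold 6, 2, 7 and 3 called genes, and STL1 in dry against control lies farthest out, at 3.96.

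No glycerol gene was called in any of the first 3 steps of rehydration, each tested against the time before it; 45 and 90 min were not tested against dry cells. In 15 min against dry cells 0 of 10 were called, against 0.119% of all probe sets, and the differences ran from -0.46 for STL1 to 0.58 for DAK2. In 45 against 15 min they ran from -0.40 to 0.09, with 0 called against 0.0755% of all, and in 90 against 45 min from -0.42 to 0.17, with 0 called against 0.173%. In each of these steps 2 of the 10 genes had an unadjusted p under 0.05, against 12.3%, 12.7% and 18.3% of all probe sets in the order given. For STL1 the 15 min arrays all lay below the dry arrays (-0.46 ± 0.16, adjusted p = 0.209), with a difference of -0.44 between the 2 dry and the 2 15 min arrays of the run they shared. For GPD1 the sign of the 15 min difference varied with the scaling, -0.03 as normalized, 0.14 as deposited and 0.26 with median-centred arrays.

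The later step, 360 against 90 min, was measured on 1 scan day, and again 0 of 10 genes were called, against 6.89% of all probe sets. Of the 10, 4 passed the adjusted p alone, against 40.3% of all probe sets, and the same 4 had an unadjusted p under 0.05, against 48.0%. These were the synthesis genes GPP1 (-0.85 ± 0.09, adjusted p = 1.21e-06) and GPD1 (-0.76 ± 0.13, adjusted p = 1.17e-04), GUT2 (-0.47 ± 0.11, adjusted p = 0.00171) and STL1 (-0.50 ± 0.16, adjusted p = 0.0186). For GUT2 the difference was -0.15 as deposited (adjusted p = 0.226) and turned to 0.076 with median-centred arrays (adjusted p = 0.597). For GPD1, GPP1 and STL1 the 360 min arrays lay wholly below the 90 min arrays.

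The scaling of the arrays bears on all comparisons with the 360 min group. Array medians of the deposited signal averaged 172 ± 4.24 in control cells, 205 ± 3.0 in dry cells and 143 ± 2.21 at 360 min (SD, n = 3 each). In 360 min against dry cells the median change of all probe sets was -0.00 as normalized, -0.20 as deposited and 0.27 with median-centred arrays. Under these scalings the called split of the 10 genes was 0 higher and 3 lower, 0 and 3, and 2 and 1. Among all probe sets it was 1060 higher and 1087 lower, 866 and 1717, and 1711 and 750. STL1 was called lower under all 3 scalings (-1.32, -1.76 and -1.29). GPD1 (-1.61, -1.32 and -0.85) and GPP1 (-1.28, -1.38 and -0.91) were also lower under all 3, but were not called with median-centred arrays. In dry against control cells the median change of all probe sets was 0.01, 0.10 and -0.13. The splits of the 10 genes were 3 higher and 4 lower, 2 and 3, and 2 and 4. Those of all probe sets were 1621 higher and 1624 lower, 1826 and 1440, and 1388 and 1801. STL1 and GUT1 above control and GPD2, GPP2 and DAK2 below it were called under all 3. In 50% dry against control cells the splits of the 10 genes were 2 higher and 4 lower, 2 and 2, and 1 and 4. For all probe sets they were 1213 higher and 1286 lower, 1354 and 1112, and 1044 and 1449. In 360 min against control cells the 10 genes split into 3 higher and 5 lower, 3 and 5, and 4 and 3. All probe sets there split into 1826 higher and 1987 lower, 1656 and 2235, and 2092 and 1803. There STL1, GUT1 and FPS1 above control and GPD2, GPP1 and GPP2 below it were called under all 3.

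**Figure D3:**
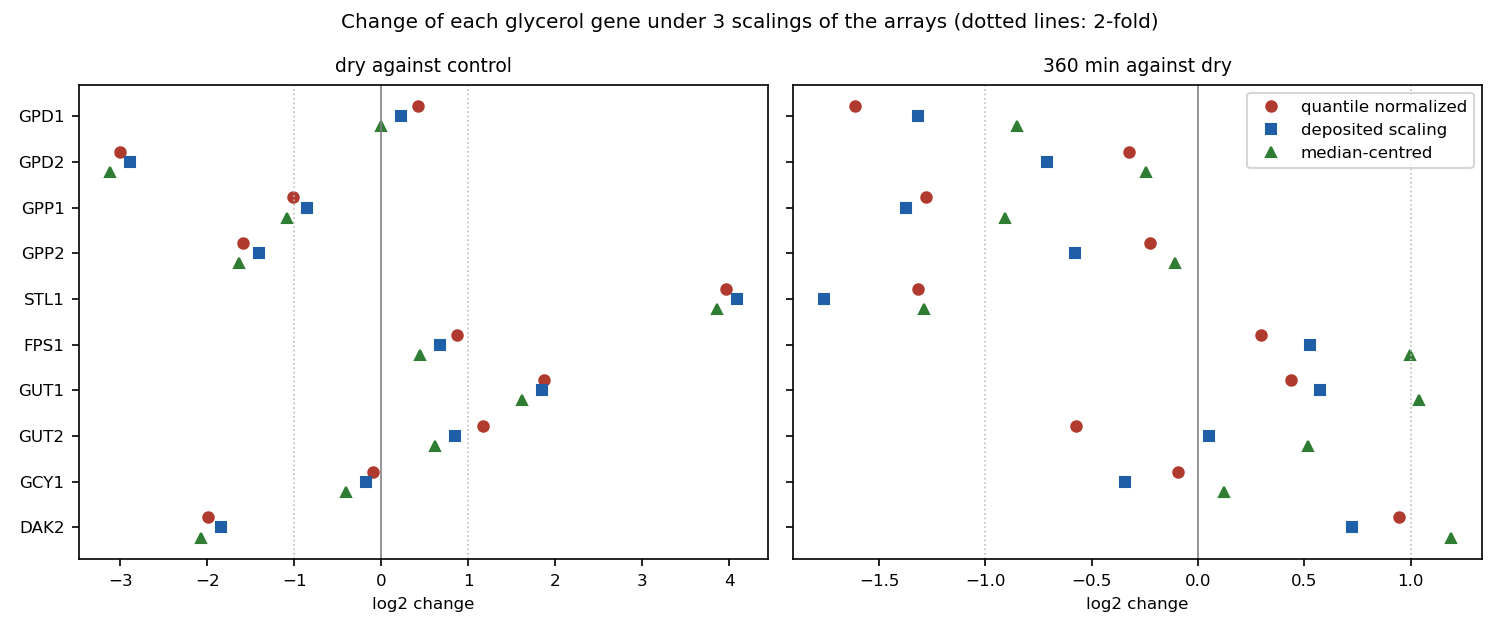
Log2 change of each gene under 3 scalings of the arrays, in dry against control and in 360 min against dry cells. Circles are quantile normalized, squares as deposited and triangles median-centred, and dotted lines mark 2-fold; in 360 min against dry cells GUT2 runs from -0.57 to 0.52 while STL1 stays at -1.29 or below.

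The genes most like GPD1, GUT1 and STL1 were sought among 4118 probe sets of named genes whose group means spanned at least 1 log2 unit, by Pearson's r over the 7 group means of log2 signal. These values describe 7 points that share the same arrays and normalization. GPD1 was most like FRK1, a protein kinase gene (r = 0.992), GSR1 (0.991) and PHB1, which encodes a mitochondrial prohibitin (0.988). GUT1 was most like RPL21B, which encodes a ribosomal protein (0.991), MEO1 (0.991) and DBR1, the RNA lariat debranching enzyme (0.989). The control arrays of RPL21B ran from 9.9 to 194.8 and those of MEO1 from 331 to 1690.3, so their control means rest on scattered arrays, while those of DBR1 ran from 92.3 to 101.1. STL1 was most like STE13, the dipeptidyl aminopeptidase that matures alpha-factor (0.991), TFB3, a subunit of the transcription factor TFIIH (0.983), and IZH4 (0.983).

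Other genes of glycerol and glycerol 3-phosphate metabolism are given for comparison. Of 9 measured, 2 rose and none fell in dry relative to control cells, where 35.0% of all probe sets were called, with a median change of 0.17 against 0.01 for all probe sets. They were GPT2, an acyltransferase that starts glycerolipid synthesis from glycerol 3-phosphate (1.38 ± 0.12, adjusted p = 1.11e-08), and GIT1, a transporter of glycerophosphoinositol (1.14 ± 0.13, adjusted p = 2.55e-07). GPT2 was at 0.83 and not called with median-centred arrays. DAK1, the other dihydroxyacetone kinase, was at -0.28 (adjusted p = 0.0241), where DAK2 was at -1.99. At 360 min relative to dry cells GIT1 fell (-1.46 ± 0.13), as did AYR1, an acyl-dihydroxyacetone phosphate reductase (-1.09 ± 0.13), and SCT1, the other acyltransferase, rose (1.26 ± 0.13), 3 of 9, against 23.1% of all probe sets. With the deposited scaling SCT1 (0.992) and AYR1 (-0.999) were just short of the minimum, and AYR1 was at -0.53 with median-centred arrays. Of the 2 water channel genes, AQY2 fell in dry relative to control cells (-2.22 ± 0.17, adjusted p = 7.91e-10) and AQY1 was at 0.18 (adjusted p = 0.376).

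The HOG pathway, which senses high osmolarity, had 7 genes higher and 2 lower of 21 in dry relative to control cells, against 35.0% of all probe sets, with a median change of 0.31. Among the 7 are HKR1 and PTP2, whose further probe sets ran from -0.47 to 2.0 and from -0.56 to 1.15, so they are uncertain. The kinase gene HOG1 itself fell (-1.88 ± 0.08, adjusted p = 2.11e-13). OPY2, a membrane anchor of the pathway (1.91 ± 0.15, adjusted p = 1.37e-09), and PTP3, a phosphatase that acts on MAP kinases (1.76 ± 0.16, adjusted p = 1.04e-08), rose. At 360 min relative to dry cells 2 of 21 were called, against 23.1% of all probe sets, the kinase gene SSK22 higher (1.73 ± 0.10) and PTP3 lower (-1.48 ± 0.16). Where a gene had several probe sets, only the brightest entered this count. Further sets of HKR1 ran from -2.54 to 2.40 at 360 min relative to dry cells, against -0.36 for its brightest. Those of RCK2 were at -1.22 (adjusted p = 8.29e-05) and -2.12 (adjusted p = 2.45e-04), against -0.35 for its brightest. The count is therefore uncertain for HKR1 and RCK2. None of the 21 was called at 15 min relative to dry cells, where only 0.119% of all probe sets were.

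Among 6 other genes known to be induced by osmotic stress, 2 rose and 3 fell in dry relative to control cells, where 35.0% of all probe sets were called. GRE1, a hydrophilin gene, rose 61.9-fold (5.95 ± 0.22, adjusted p = 1.69e-14) and GRE2, a methylglyoxal reductase, 4.41-fold (2.14 ± 0.12, adjusted p = 7.84e-12). HOR7 was called lower (adjusted p = 0.0352) from signals of 0, 0.9 and 156.7 in dry cells against 140.7, 164.3 and 1030.4 in control cells, and the call was lost without control array 2, dry array 1 or dry array 3 and with 88.7 added. Its size depends on the added value and is not given. HSP12, a small membrane-associated heat shock protein gene, and GRE3 were also called lower. Their mean log2 signals were 12.46 and 10.36 in control cells and 11.01 and 9.10 in dry cells. At 360 min HOR7 read 11247.5, 16170.8 and 23708.2 and was called higher than in dry cells (adjusted p = 3.24e-05); with 2 dry arrays at or near 0, no fold is given. HSP12 also rose then, from its dry level below control (1.87 ± 0.41, adjusted p = 7.59e-04), while GRE2 fell (-1.5 ± 0.12).

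Of 9 regulators of growth on glycerol, 6 were higher and 1 lower in dry relative to control cells, where 35.0% of all probe sets were called, with a median change of 1.61. The largest were OPI1, a repressor of phospholipid genes (3.08 ± 0.12, adjusted p = 2.70e-14), CAT8, an activator of genes for growth without glucose (3.06 ± 0.10, adjusted p = 2.73e-15), and INO2, an activator of phospholipid genes and of GUT1 (2.63 ± 0.24, adjusted p = 1.19e-08). INO2 read 8.6, 9.8 and 29.7 in control cells, signals around the added value, and 195.2 to 224.7 in dry cells. The size of its rise therefore depends on the added value. In 50% dry relative to control cells the count was again 6 higher and 1 lower, against 26.9% of all probe sets called. The list holds activators as well as repressors, OPI1 and MIG1 among the latter, and any effect on GUT1 or GUT2 was not tested. At 360 min relative to dry cells the kinase gene SNF1 (-1.79 ± 0.15), INO2 (-1.35 ± 0.24) and ADR1, an activator of glucose-repressed genes (-1.30 ± 0.11), fell and RSF2 rose (1.04), 4 of 9, against 23.1% of all probe sets. GUT1 itself differed by 0.44 in that comparison and was not called.

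**Figure D4:**
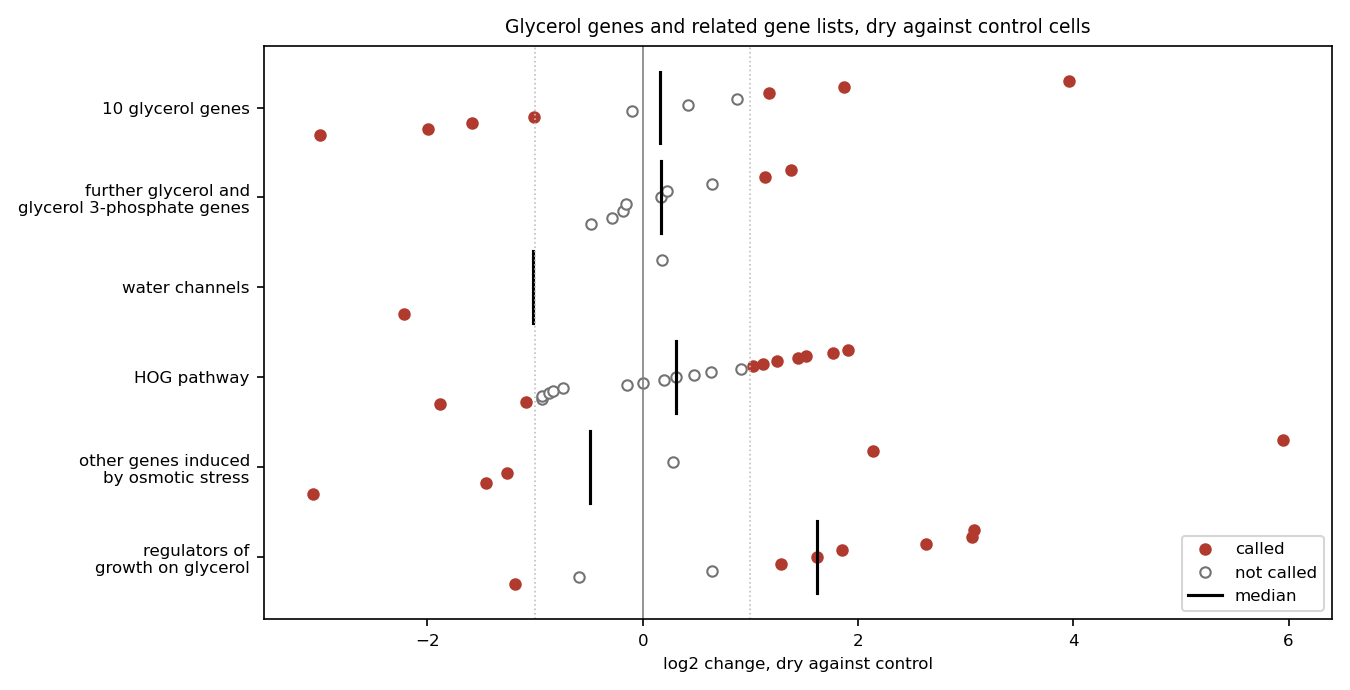
Log2 change in dry against control cells of the 10 glycerol genes and of 5 lists of related genes, 1 point per gene. Filled points are called, black bars are list medians and dotted lines mark 2-fold; the medians run from -1.02 for the 2 water channels to 1.61 for the 9 regulators of growth on glycerol.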

How the data were processed

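Total RNA of 21 samples was measured on 21 arrays. The deposited table held linear probe-set intensity values; per the labels, these were made with the GeneChip Expression Analysis Software, a Wilcoxon signed rank test and a linear mixed model in 2 steps. Which version, scaling or build was used is not given in the sources used here. Trimmed by 2%, the mean was 500.2 to 500.5 on every array, while array medians ran from 141.2 to 207.3, a range of 46.8%. Since that exceeded 5%, log2(signal + 17.74) was quantile normalized; the constant is 10% of the overall median, 177.4. Hybridization times and scan days came from the arrays' run records. The runs themselves were not recorded and were inferred here: a gap of more than 30 min between successive hybridization times started a new run.

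Of 9335 probe sets, 60 controls were left out and 9275 tested, of which 6504 name 1 gene, 328 several and 2443 none; none was filtered for low values. A limma 3.58.1 model of group means (R 4.3.3) over all 21 arrays used a variance trend, with 14 residual and 4 prior degrees of freedom and Benjamini-Hochberg adjustment over all probe sets. Pairs of genes were compared by exact two-sided permutation over arrays. A gene with several probe sets was represented by the brightest. From each list up to 3 called genes with the largest change were named in the comparisons of dry with control, of 15 min with dry and of 360 min with dry; any other named gene was chosen after its values were seen. The members and lists were chosen with earlier results of these data known. Replicate numbers did not pair the arrays: in 0 of 21 pairs of groups did every same-numbered pair correlate above 0.1. With 3 arrays per group, their number limits precision. Tables and plots used Python 3.11.15, pandas 2.3.3, numpy 2.4.6, scipy 1.17.1 and matplotlib 3.10.9. Alternatives were other added values (1% and 50% of the median), the deposited scaling, median-centred arrays, no fold minimum, no variance trend, no dimmest 20% of probe sets, only the arrays compared, a replicate block, a hybridization run block and each array left out; the fit of the 4 groups that share runs without that block was added after seeing the data.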

Additional observations from a re-analysis of the deposited data

How the results depend on the processing

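With no fold minimum, 10 of the 10 genes passed in 50% dry against control, where 5322 of the 9275 probe sets did. Also without it, 7 passed in dry against 50% dry (3258 of all), 4 in 360 against 90 min (3737) and 7 in 360 min against dry (5460). With the fold minimum kept and the deposited scaling, 1 gene was called in 360 against 90 min (GPP1, -1.07). Leaving out 1 array gave 5 to 6 called genes in 50% dry against control, 2 in dry against 50% dry, 6 to 7 in dry against control, 3 to 4 in 360 min against dry, 7 to 8 in 360 min against control and 0 in the other 4 comparisons. The replicate block, the run block, the fit without the variance trend, the fit of only the arrays compared and the removal of dim probe sets kept the call and direction of each of the 10 genes in the comparisons recomputed by gene (2 for the run block, 7 for the others; 45 against 15 min and 90 against 45 min were recomputed as counts only); with the replicate block, 7 were called in dry against control. Among all probe sets the calls, set beside those reported, were 410 against 752 in dry against 50% dry, 1249 against 2147 in 360 min against dry and 265 against 639 in 360 against 90 min with 50% of the median added; 360 against 90 min gave 1042 with 1% added and 1006 with median-centred arrays. The 11, 7 and 16 calls of the first 3 steps of rehydration varied from 2 to 18, 0 to 64 and 3 to 35. Without a fold minimum the counts of the other 5 comparisons were 72 (15 min against dry), 95 (45 against 15 min), 436 (90 against 45 min), 5969 (dry against control) and 6562 (360 min against control).

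Calls were lost with 50% of the median added for GPP2 (-0.86) and DAK2 (-0.88) in 50% dry against control, GPP1 (-0.99) in dry against control and DAK2 (-0.69) in 360 min against control. With the deposited scaling they were lost for GPP1 (-0.89), GPP2 (-0.91) and GUT2 (0.997) in 50% dry against control. That scaling also ended those of GPP1 (-0.85) and GUT2 (0.85) in dry against control. With median-centred arrays GUT2 lost its calls in 50% dry (0.80) and dry cells (0.62), both against control. Median-centring also ended the calls of GPD1 (-0.85) and GPP1 (-0.91) in 360 min against dry. In 360 min against control it ended those of GPD1 (-0.85) and DAK2 (-0.88). Calls were gained for STL1 in 50% dry against control with 1% of the median added (1.30), the deposited scaling (1.11) or without 50% dry array 2 (1.02). In 360 min against dry they were gained for DAK2 with 1% added (1.27) or median-centred arrays (1.19) and for GUT1 with median-centred arrays (1.04). Median-centring also added GUT2 in 360 min against control (1.13), and the deposited scaling GPP1 in 360 against 90 min (-1.07). Among related genes, 50% added ended the calls of GIT1 (0.74) and HOR7 in dry against control. In 360 min against dry it ended those of PTP3 (-0.96), INO2 (-0.85) and GIT1 (-0.91).

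Some differences that were not called changed sign, among them GUT2 in 360 min against dry, at -0.57 as reported, and in 360 against 90 min, at -0.47. With the deposited scaling these were GPD1 (0.14) and GPP2 (-0.023) in 15 min against dry, GPP2 in 360 against 90 min (-0.10; -0.0011 with 1% added) and GUT2 in 360 min against dry (0.050). With median-centred arrays they were GCY1 in 50% dry against control (-0.034), GPD1 in 15 min against dry (0.26), GUT2 in 360 against 90 min (0.076) and in 360 min against dry (0.52), and GCY1 in 360 min against dry (0.12). Leaving out 1 array gave -0.025 to 0.18 for FPS1 and -0.12 to 0.019 for GUT2 in dry against 50% dry, -0.092 to 0.0065 for GPD1 and -0.012 to 0.10 for GUT2 in 15 min against dry, and -0.082 to 0.094 for GPP2 and -0.0043 to 0.088 for FPS1 in 360 against 90 min. The cause was not tested.

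Some gaps between paired genes moved by more than their spread under other scalings or added values. The deposited scaling and median-centring, which act alike on them, gave for 15 min against dry -0.16 (GPD1 minus GPD2), 0.22 (GPP1 minus GPP2) and -0.70 (STL1 minus FPS1), for 360 min against dry -0.61, -0.80, 0.52 (GUT1 minus GUT2), -1.37 (GPD1 minus GUT2) and -2.29 (STL1 minus FPS1), and for dry against control 1.00 (GUT1 minus GUT2), -0.62 (GPD1 minus GUT2) and 3.41 (STL1 minus FPS1). With 50% added they were 2.99 (GPD1 minus GPD2), 1.87 (STL1 minus FPS1) and 1.06 (GCY1 minus DAK2) for dry against control. STL1 minus FPS1 was then -0.59 for 15 min against dry and -1.41 for 360 min against dry, and GCY1 minus DAK2 was -0.38 and -0.55. With 1% added STL1 minus FPS1 was 3.71 for dry against control. GCY1 minus DAK2 was then 2.36 for dry against control and -1.36 for 360 min against dry. Leaving out 1 array in 15 min against dry changed the sign of 3 gaps, within their spread. They ran from -0.019 to 0.13 (GPP1 minus GPP2), -0.0043 to 0.30 (GUT1 minus GUT2) and -0.12 to 0.010 (GPD1 minus GUT2).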
